A study of Mus musculus with 15 samples.

Results

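Mammary tumours of MMTV-PyMT mice were ordered by how much adipocyte transcript they held, and the 5 tumours at the top of that order were compared with the 5 at the bottom. The order came from the measured values themselves. On each of the 15 arrays of the series the levels of Adipoq, Plin1, Fabp4 and Cidec, 4 adipocyte markers, were averaged, and the 5 highest and 5 lowest arrays were taken as adipose-high and adipose-low, which is 10 of 15 arrays. The other 5 arrays lay between the groups. A level here is the log2 of the processed array signal minus the 75th percentile of that signal on the same array, so a level of 0 is the 75th percentile and 1 unit is a doubling. Levels of different genes come from different probes and were not set against each other.

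All tumours carried the MMTV-PyMT transgene, in which the mouse mammary tumour virus promoter drives the polyoma middle T oncogene in mammary epithelium, and all came from mice aged 20 weeks. The mice were on the B6 background (8 arrays) or the Wsh background (7 arrays). Wsh is the usual name of mice with the Kit W-sh allele, which lack mast cells as adults, and mast cells are the subject named in the title of the series. The adipose-high group held 2 B6 and 3 Wsh tumours, and the adipose-low group 3 B6 and 2 Wsh tumours. Each sample was total RNA of a mammary tumour, extracted with a kit made for lipid-rich tissue. Nothing in the labels tells whether each tumour had a mouse of its own. The p-values therefore rest on the spread among these arrays, which may be technical in part.

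The mammary gland grows within a pad of white fat, and tumours of the gland border on that fat or enclose it. White adipocytes store triglyceride in a single large droplet coated by perilipins and CIDE proteins. They release the stored fatty acids when beta-adrenergic signals activate the lipases Atgl and Hsl, and they secrete adipokines such as adiponectin. Adiponectin is encoded by Adipoq, perilipin 1 by Plin1, the cytosolic fatty acid carrier aP2 by Fabp4, and a protein that enlarges lipid droplets by Cidec. The factors Pparg and Cebpa hold the adipocyte programme in place and are known to bind DR1-type and C/EBP-type elements in its genes. In a bulk sample, fewer cells of a type and less RNA per cell cannot be told apart.

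The sequence just before the start site was taken from RefSeq (GRCm38.p6) for 2 of the ranking markers and for Fasn, which was called below whichever array was left out. The 3 promoters are examples from a larger set that was searched, for genes that moved together over most arrays and parted on 1 of them. Each is 250 bases long, 5′ to 3′ on the strand of the gene, and ends at the last base before the start site. Capitals mark CCAAT, TTGCNNAA (a C/EBP-type motif) and a PPAR-type DR1, which is AGGNCA repeated in the same direction with 1 base between, on either strand. Adipoq is on the plus strand at chr16:23146286-23146535, Plin1 on the minus strand at chr7:79732777-79733026, and Fasn on the minus strand at chr11:120824548-120824797.
Adipoq: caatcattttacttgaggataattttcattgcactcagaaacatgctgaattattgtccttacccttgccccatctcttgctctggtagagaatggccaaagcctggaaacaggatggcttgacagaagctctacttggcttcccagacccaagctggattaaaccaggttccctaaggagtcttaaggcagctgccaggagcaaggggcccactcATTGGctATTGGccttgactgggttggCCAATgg
Plin1: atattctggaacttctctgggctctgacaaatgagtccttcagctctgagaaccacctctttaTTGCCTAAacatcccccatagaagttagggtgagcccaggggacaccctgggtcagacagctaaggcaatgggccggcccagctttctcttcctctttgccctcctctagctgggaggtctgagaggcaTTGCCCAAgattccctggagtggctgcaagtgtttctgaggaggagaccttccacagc
Fasn: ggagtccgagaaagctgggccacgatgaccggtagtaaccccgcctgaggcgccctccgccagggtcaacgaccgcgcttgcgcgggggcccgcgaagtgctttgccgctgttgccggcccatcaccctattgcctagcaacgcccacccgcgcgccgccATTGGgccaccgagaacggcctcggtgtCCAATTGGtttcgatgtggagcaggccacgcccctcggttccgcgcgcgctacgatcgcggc
The Adipoq promoter held CCAAT once on the gene strand, its first base at -7 from the start site, and its reverse complement ATTGG at -34 and -27. The Plin1 promoter held TTGCNNAA at -187 and -58 and no CCAAT. The Fasn promoter held CCAAT at -62 and ATTGG at -90 and -59, and the matches at -62 and -59 overlap. The DR1 was in none of the 3 windows. The promoters of Slc2a5, Acaca and Pck1 were searched in the same way and held none of these motifs. Of 2 Cidec promoters, 1 held TTGCNNAA at -198 and the other held none of them. Of 32851 mouse promoters of the same length, 33.8% held CCAAT, 9.56% held TTGCNNAA and 0.338% held the DR1, on either strand. A match is a description of these letters, not a site shown to be in use.

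The marker mean ran from 3.40 to 5.44 in the adipose-high group and from -3.05 to 1.73 in the adipose-low group. In the adipose-high tumours it was 5.44 in B6 replicate 7, 5.09 in Wsh replicate 1, 4.52 in B6 replicate 4, 3.83 in Wsh replicate 6 and 3.40 in Wsh replicate 4. In the adipose-low tumours it was 1.73 in Wsh replicate 5, 1.48 in Wsh replicate 7, 1.36 in B6 replicate 5, 0.95 in B6 replicate 8 and -3.05 in B6 replicate 3. The last of these stood far below the others. The edges of the groups were narrow: Wsh replicate 3 was left out at 3.34, beside Wsh replicate 4 at 3.40, and B6 replicate 1 was left out at 1.98, beside Wsh replicate 5 at 1.73.

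**Figure D1:**
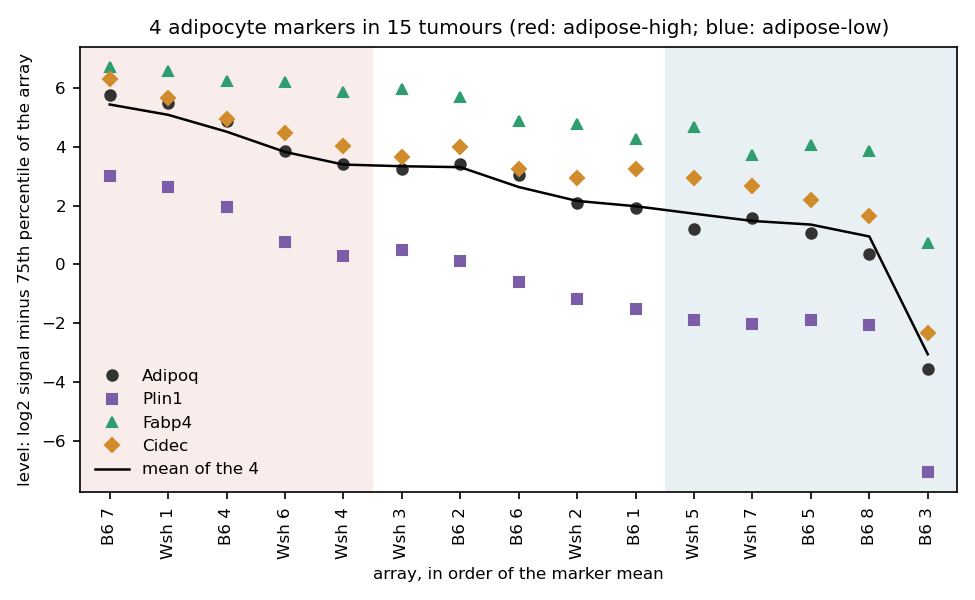
Levels (log2 signal minus the 75th percentile of the array) of Adipoq, Plin1, Fabp4 and Cidec and their mean on 15 arrays, in order of that mean, with the 5 adipose-high arrays shaded red and the 5 adipose-low arrays shaded blue. The mean falls in small steps from 5.44 to 0.95 over 14 arrays and then to -3.05 in B6 replicate 3.

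Each of the 4 markers followed the same order closely, which the choice of arrays fixes in part. Adipoq was 5.75, 5.48, 4.89, 3.86 and 3.42 in the adipose-high arrays in the order above, and 1.19, 1.58, 1.08, 0.36 and -3.55 in the adipose-low arrays. Plin1 was 3.0, 2.63, 1.96, 0.77 and 0.28 against -1.90, -2.03, -1.89, -2.06 and -7.06. Fabp4 was 6.71, 6.59, 6.25, 6.21 and 5.85 against 4.67, 3.72, 4.05, 3.86 and 0.72. Cidec was 6.31, 5.65, 4.95, 4.47 and 4.04 against 2.96, 2.65, 2.19, 1.64 and -2.31. Adipoq, Fabp4 and Cidec were well above background on every adipose-low array, and Plin1 on 4 of 5. All 5 adipose-low tumours therefore held adipocyte transcript, and in B6 replicate 3 Plin1 alone of the 4 was not well above background.

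Adipose content did not differ between the backgrounds by more than its spread. The marker mean was 3.0 ± 1.29 (SD, n = 7) in Wsh and 2.14 ± 2.60 (SD, n = 8) in B6. The difference of 0.86 was smaller than the SD within either background (exact permutation test, two-sided, p = 0.476), and it was 0.12 without B6 replicate 3. It was 1.81 among the arrays of slide 1 (exact permutation p = 0.343) and -0.25 among those of slide 2 (exact permutation p = 0.886). Array quality did not separate the groups. Spots well above background made up 61.2% ± 5.96 (SD, n = 5) of the spots on adipose-high arrays and 61.1% ± 4.56 (SD, n = 5) on adipose-low arrays (exact permutation p = 0.984). The 75th percentile of the signal was 4360.5 ± 443 (SD, n = 5) and 4324.4 ± 1194 (SD, n = 5) (exact permutation p = 0.984).

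Other tissue moved along with fat on some arrays. Transcripts of skeletal muscle, which lies under and beside the fat pad, were plentiful in 3 of 5 adipose-high tumours (B6 replicate 4 and Wsh replicates 1 and 4), in 1 of 5 adipose-low tumours (Wsh replicate 5) and in Wsh replicate 3 between the groups. The mean level of the 11 measured muscle genes ran from 0.24 to 3.33 in those 5 arrays and from -3.73 to -3.03 in the other 10. The slides were also uneven: 3 of 5 adipose-high arrays but 1 of 5 adipose-low arrays were on slide 1. Epithelial transcripts were abundant in both groups: the mean of 15 luminal epithelial genes ran from 2.63 to 3.31 on adipose-high and from 3.15 to 3.59 on adipose-low arrays.

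Leaving out the 4 markers, 462 of 22340 genes (2.07%) differed between the groups at an adjusted p under 0.05 (limma with background as a covariate, Benjamini-Hochberg over all genes). Of these, 374 (1.67%) were higher and 88 (0.394%) were lower in adipose-high tumours. The arrays were grouped by values measured on the same arrays, so these tests describe genes that go with the marker level and not a comparison of groups set beforehand. The rises were also larger: the median log2 difference was 2.09 among the genes called higher and -1.33 among those called lower, and 197 of the former but 13 of the latter passed 4-fold. All 462 had the same direction within B6 and within Wsh, and in 369 of the 374 higher and 86 of the 88 lower genes the mean of the 5 arrays between the groups fell between the means of the groups. The values of both groups were wholly apart for 351 of the 374 and 68 of the 88. Over all genes, 3.44% had non-overlapping higher values and 2.51% lower ones. The genes were called on these same arrays, so the counts of direction and of non-overlap follow in part from that choice.

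The number of genes called depended strongly on single arrays. It was 4 without B6 replicate 4, 7 without B6 replicate 7, 59 without Wsh replicate 5, 67 without B6 replicate 5, 67 without B6 replicate 8, 132 without B6 replicate 3, 167 without Wsh replicate 1, 706 without Wsh replicate 6 and 1759 without Wsh replicate 4. In each of these fits, and without Wsh replicate 7 (388 genes), all 462 genes kept their sign. The genes were called on the same arrays, so a kept sign was nearly fixed beforehand. Without the 4 arrays of these groups that held skeletal muscle, 0 genes were called by limma and 2679 had an unadjusted p under 0.05, and again all 462 kept their sign. With the muscle mean as a covariate 170 genes were called, and with slide as a block 178. A straight line on the marker mean over all 15 arrays called 1615 genes higher (7.23%) and 1309 lower (5.86%) with a rising mean. Among them were 340 of the 374 and 64 of the 88. That line uses the mean that chose the groups and includes their arrays, so this overlap was largely fixed beforehand.

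Just 4 genes were called in the comparison and in all 10 fits that left out 1 array: Fasn, Slc2a5, Kcnk3 and Gbp2b. The first 3 are described below. Gbp2b, a guanylate-binding protein of the interferon-inducible family, is named because it was in this set and was chosen after its values were seen. It was -3.86, -2.65, -2.03, -4.23 and -3.32 in the adipose-high arrays and -7.30, -7.01, -6.62, -7.68 and -7.21 in the adipose-low arrays, where it was not well above background on any. It was at least 4.05-fold higher in adipose-high tumours (adjusted p = 0.0103). Here and below, such a bound sets the measured group against the weakest signals that were well above background on the arrays of the other group, or the probe's own signal where that was higher.

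**Figure D2:**
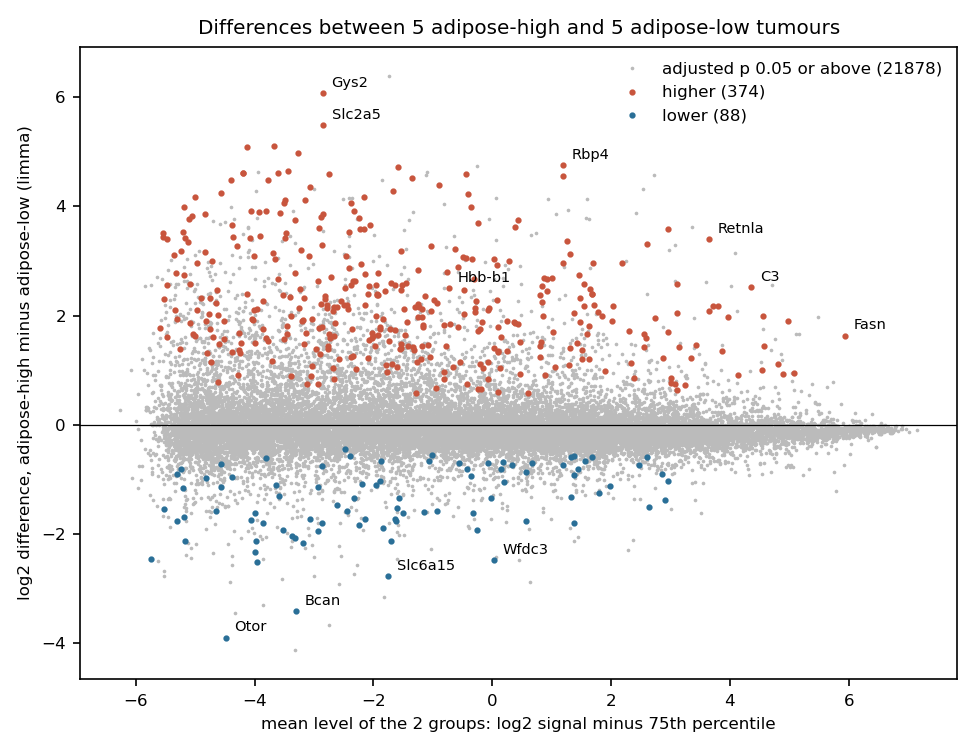
Log2 difference of each of 22340 genes between 5 adipose-high and 5 adipose-low tumours (limma with background as a covariate) against its mean level in both groups. The 374 genes called higher (red) spread over the whole range of levels and reach 6.07 at Gys2, and the 88 called lower (blue) reach -3.89 at Otor.

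The adipocyte lists, which hold genes of the cells that the ranking selects for, though not of those cells alone, are given as a description. Of their 104 genes other than the 4 markers, 100 passed the filter on dim probes, 40 of these were called higher and 0 lower, and 89 of 100 differences were above 0. The values of 61 did not overlap between the groups, against 5.95% of all genes in either direction. The median difference was 1.62, against -0.08 over all genes tested. Over all 22340 genes, 8472 differences were above 0 and 13868 below, beside which the sign counts of all lists are to be read. The share called follows from the choice of arrays. The lists had 1 call without B6 replicate 4, 1 without B6 replicate 7, 7 without Wsh replicate 5, 11 without B6 replicate 5, 12 without B6 replicate 8, 20 without Wsh replicate 1 and 25 without B6 replicate 3. They had 65 higher calls and 1 lower call without Wsh replicate 4. Medians of lists are those of the differences between group means, and differences of single genes are those of the fit.

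Genes of lipid release held some of the wide gaps. All 10 lipolysis genes were above 0, and 5 were called. Lipe, which encodes hormone-sensitive lipase, was 1.16, 0.46, 0.34, -0.30 and -0.77 in the adipose-high arrays and -1.67, -1.47, -2.23, -2.03 and -2.75 in the adipose-low arrays, so the groups did not overlap. Adrb3, the beta-3 adrenergic receptor of adipocytes, was 4.66, 4.61, 3.25, 3.23 and 1.98 against 0.41, -0.13, -0.47, -0.81 and -4.76. Its log2 difference was 4.55 (SE 0.97), and 3.79 without B6 replicate 3. The carboxylesterases Ces1f and Ces1d, which hydrolyse triglyceride, had differences of 4.72 and 4.23. They belong to a family of close copies, so their probes may share signal. Differences were smaller for Pnpla2, the first lipase of the pathway (1.14, SE 0.25), for Mgll, the last one (1.42, SE 0.30), and for Abhd5, the co-activator of Pnpla2 (0.48, SE 0.22). The values of Abhd5 overlapped between the groups.

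Lipid droplet proteins split in the same manner. Of 8 measured genes, 2 were called: Plin4 at 2.96 (SE 0.61) and Cidea at 2.70 (SE 0.40). Plin2, the perilipin that coats droplets in most cell types, differed by 0.64 (SE 0.19) with overlapping values, and Hilpda, a hypoxia-induced droplet protein, by -0.06 (SE 0.15).

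All 14 genes of fatty acid uptake and triglyceride synthesis were higher on average, and 7 were called. Lpl, the lipase that frees fatty acids from blood lipoproteins, was 5.34, 5.23, 4.45, 3.43 and 2.87 against 1.63, 1.59, 0.82, 1.22 and -0.49. Cd36, the fatty acid translocase, differed by 3.62 (SE 0.65). Dgat2, which makes the last step to triglyceride, was 5.61, 5.50, 5.02, 3.43 and 3.84 against 1.02, 1.0, 1.58, 1.52 and 1.09, a difference of 3.58 (SE 0.37) that was 3.48 without B6 replicate 3. The acyltransferase Agpat2 (2.17, SE 0.29) and Gpd1, the source of glycerol 3-phosphate (1.97, SE 0.23), were among those called. Pck1, the key enzyme of glyceroneogenesis, had a difference of 4.14 (SE 1.21) and was not called. Its values ran from 1.09 to -5.41 within the adipose-low group.

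Of 13 genes of fatty acid synthesis, 8 were called. Fasn, fatty acid synthase, was 7.01, 6.84, 6.76, 6.41 and 6.68 in the adipose-high arrays and 4.93, 5.17, 5.24, 5.34 and 5.06 in the adipose-low arrays. The 5 arrays between the groups lay between 5.30 and 6.40. The log2 difference was 1.63 (SE 0.12), or 3.098-fold, and it lay between 1.42 and 1.77 over the alternative fits of a group difference. Acaca, which makes malonyl-CoA, was 5.49, 5.42, 4.81, 4.05 and 4.56 against 2.59, 3.09, 2.71, 2.42 and 2.82. Acaca had 7 probes, and 1 of them went the other way, with a difference of -0.66. The desaturase Scd1 (1.98, SE 0.25), the elongase Elovl6 (1.96, SE 0.29), the citrate carrier Slc25a1 (2.0, SE 0.27), Insig1 (1.86, SE 0.26), malic enzyme Me1 (1.45, SE 0.19) and ATP citrate lyase Acly (1.11, SE 0.19) were the others called.

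Srebf1 and Mlxipl, regulators of that pathway on the same list, were not called. Srebf1, which encodes the transcription factor SREBP1, had a difference of -0.19 (SE 0.17), and Mlxipl, which encodes ChREBP, one of 0.02 (SE 0.23). Another Mlxipl probe had a difference of 2.42, so the probes of this gene disagree. Scd2, a second stearoyl-CoA desaturase, had -0.26 (SE 0.23). On the probes used, the values of all 3 overlapped between the groups.

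B6 replicate 3 differed from the other adipose-low arrays in some genes of the adipocyte lists and not in others. Its log2 difference from the mean of the other 4 adipose-low arrays was -4.60 for Adipoq, -4.91 for Retn, -4.51 for Adrb3 and -6.03 for Pck1. The same difference was -0.11 for Fasn, 0.11 for Acaca, 0.28 for Scd1 and 0.09 for Me1. This array was ranked last by adipocyte markers, so counts of genes in which it was lowest are a description. Were the 5 arrays in random order, each would be lowest in about 1 gene of 5. The share over all genes was not counted. B6 replicate 3 was below all 4 other adipose-low arrays in 10 of 13 genes of the list of other adipocyte genes and in 6 of 10 lipolysis genes. The count was 5 of 14 for uptake and triglyceride synthesis, 5 of 11 for the adipogenic factors, 4 of 10 for adipokines, 3 of 8 for lipid droplet proteins, 2 of 11 for brown fat, 1 of 11 for insulin response and caveolae and 1 of 13 for fatty acid synthesis. The lower level was not shared by all genes of the adipocyte lists, and which cells their transcripts came from was not tested. Some genes of other adipocyte lists, picked here after their values were seen, were also near the other adipose-low arrays, among them Pnpla2 (0.12), Gpd1 (-0.06), Dgat2 (-0.19), Cebpa (-0.03) and Aoc3 (0.17). Without this array the fatty acid synthesis list went from 8 calls to 7, uptake and triglyceride synthesis from 7 to 3, lipolysis from 5 to 3 and the adipogenic factors from 5 to 0. The list of other adipocyte genes went from 6 calls to 7, and adipokines had 2 in both fits.

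**Figure D3:**
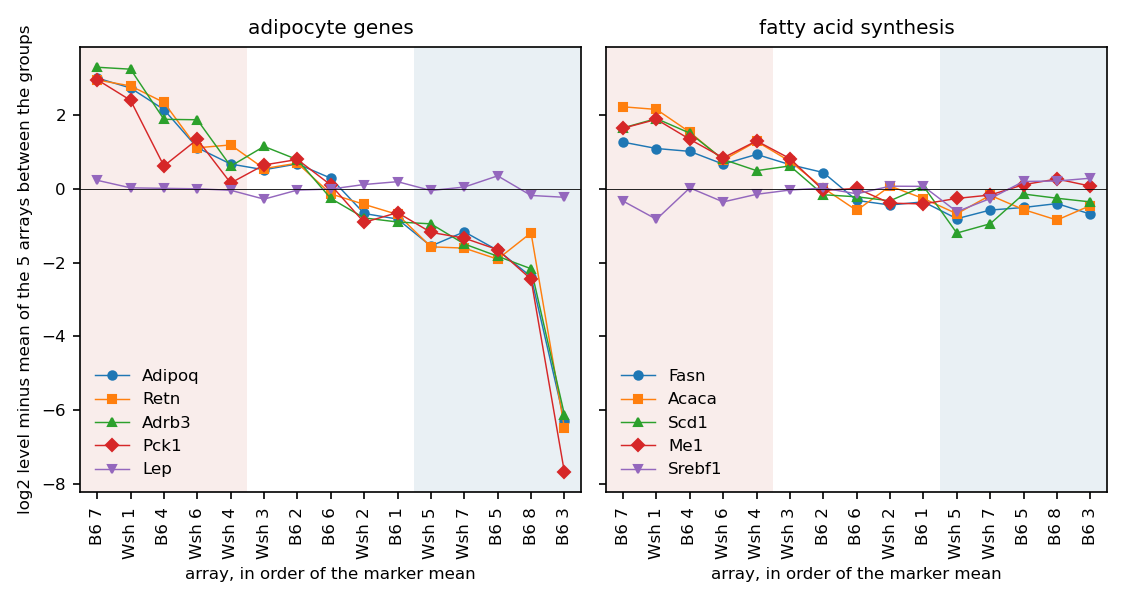
Levels of 5 adipocyte genes (left) and 5 genes of fatty acid synthesis (right) on each array, on the log2 scale, minus each gene's mean over the 5 arrays between the groups. Adipoq, a ranking marker, and Retn, Adrb3 and Pck1 lie lower again in B6 replicate 3, by -4.51 to -6.03 against the other adipose-low arrays. Lep, the fifth gene on the left, differs by -0.27. Fasn, Acaca, Scd1 and Me1 in that array differ from the mean of the others by -0.11 to 0.28, and Srebf1 by 0.41. Scd1 varies from 3.02 to 4.07 over the adipose-low arrays.

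Adipokines were uneven. Retn, which encodes resistin, was 5.92, 5.76, 5.31, 4.08 and 4.16 against 1.39, 1.36, 1.06, 1.77 and -3.51. Rbp4, the retinol carrier, was 4.59, 4.76, 3.53, 2.87 and 2.05 against -0.61, -0.92, -0.91, 0.23 and -3.70, a log2 difference of 4.76 (SE 0.80). Cfd, adipsin, ran from 6.41 to 6.81 in the adipose-high and from 1.35 to 5.75 in the adipose-low arrays. Lep, which encodes leptin, overlapped between the groups. Its only probe read -2.41, -2.61, -2.63, -2.64 and -2.68 in the adipose-high arrays and -2.69, -2.59, -2.29, -2.82 and -2.87 in the adipose-low arrays, and was well above background on all 10. The fitted difference was 0.07 (SE 0.13). In all, 2 of 10 measured adipokine genes were called, Rbp4 and Sfrp5 (2.67, SE 0.57).

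Of 11 adipogenic transcription factors, 5 were called. Pparg was 3.37, 2.66, 2.37, 1.63 and 1.0 against -0.08, 0.08, -0.21, -0.79 and -1.26. Cebpa (1.44, SE 0.27), Klf15 (2.79, SE 0.52), Ebf2 and Nr1h3 were the others called. Cebpb and Cebpd, which act early in adipocyte differentiation and are also stress-induced in many cells, had differences of -0.40 (SE 0.22) and -0.87 (SE 0.23), and neither was called. Among 11 genes of insulin response and caveolae, 3 were called. Among them were Slc2a4, the insulin-responsive glucose transporter (2.39, SE 0.49), and Trarg1, a partner of that transporter (3.81, SE 0.74). Insr, the insulin receptor, differed by 0.11 (SE 0.21).

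The list of other adipocyte genes had a median of 3.50 over 13 genes, the highest of the adipocyte lists, with 6 called. Hcar1, the lactate receptor that restrains lipolysis, was not well above background on any adipose-low array and was at least 8.30-fold higher in adipose-high tumours. Aoc3, a cell surface amine oxidase, differed by 2.96 (SE 0.43), but a second probe read -0.22. Orm1, an acute-phase carrier protein, differed by 4.40 (SE 0.65), and its near copy Orm2 by 4.59 (SE 0.65).

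Brown fat genes were mixed. Cidea, Cox8b (2.74, SE 0.41), a respiratory chain subunit of brown fat and muscle, and Otop1 (1.73, SE 0.35) were called, 3 of 11. Ucp1, the uncoupling protein that defines brown and beige fat, was 0.49 in Wsh replicate 4 and between -4.79 and -3.57 in the other adipose-high arrays. It was well above background on 3 of 5 adipose-high and 1 of 5 adipose-low arrays and was not called. Prdm16, a factor of brown fat identity, ran from -1.86 to -1.23 in the adipose-high and from -5.06 to -0.11 in the adipose-low arrays.

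**Figure D4:**
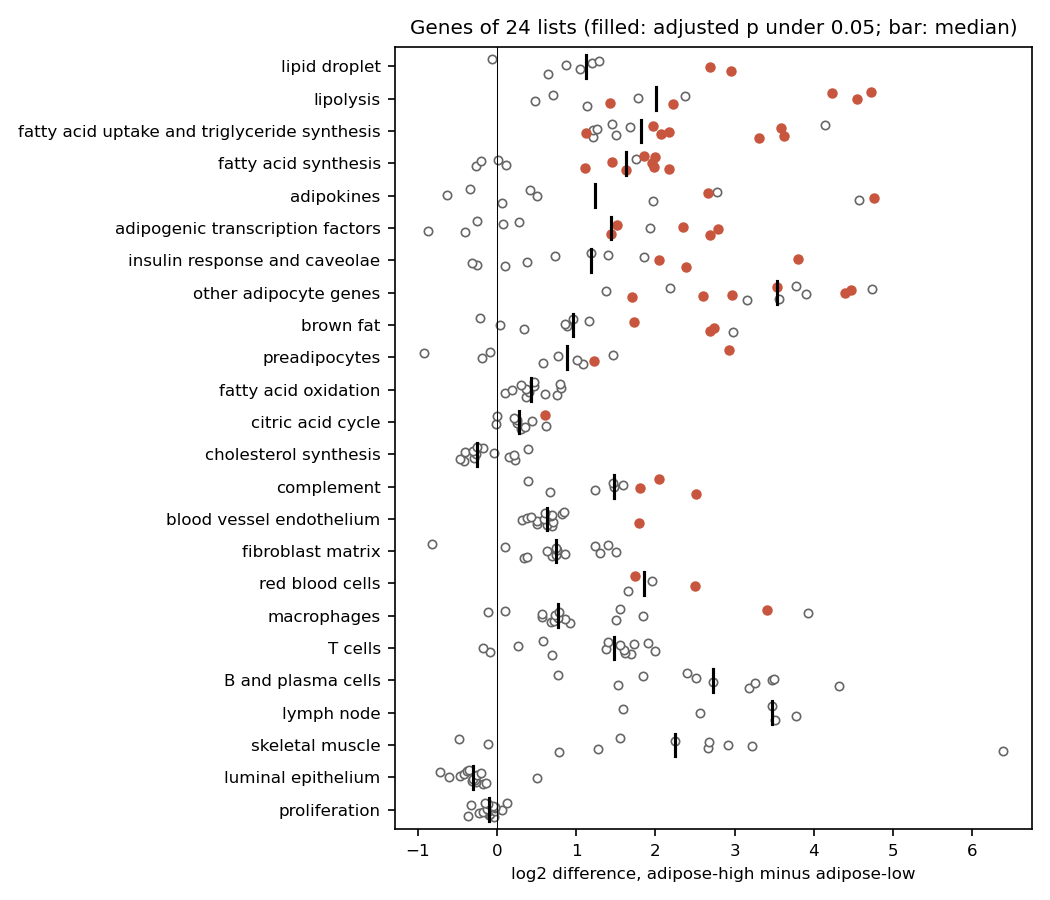
Log2 differences between adipose-high and adipose-low tumours for the measured genes of 24 lists, filled where the adjusted p was under 0.05, with a bar at the median of each list. The medians of the adipocyte lists lie to the right of 0, and the muscle, lymph node and B cell lists also lie to the right with 0 genes called. Of 15 luminal epithelial genes, 14 lie to the left. By group means, 13868 of all 22340 genes tested were below 0.

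Of the 15 largest rises among called genes with a symbol, 12 were outside the lists. Gys2, the glycogen synthase of liver and fat, was 0.98, 1.40, 0.18, -1.20 and -1.08 against -6.44, -7.01, -4.96, -3.25 and -7.17, a log2 difference of 6.07 (SE 0.76, adjusted p = 0.0132). Slc2a5, the fructose transporter, was 0.12, 0.99, 0.22, -1.55 and -0.81 against -5.90, -6.73, -5.40, -4.50 and -4.92 (5.48, SE 0.46, adjusted p = 0.00628). Kcnk3, the potassium channel TASK-1, was -1.15, -1.05, -2.12, -3.05 and -2.26 in the adipose-high arrays and not well above background on any adipose-low array, at least 9.94-fold higher (adjusted p = 0.00942). Klb, which encodes beta-klotho, the co-receptor of FGF21, was -0.52, -0.26, -1.05, -2.41 and -2.48 against -5.59, -5.72, -5.61, -5.42 and -7.10 (4.60, SE 0.53, adjusted p = 0.0132). The amino acid transporter Slc36a2 (4.60), the sphingomyelinase Smpd3 (4.61), the claudin Cldn22 (4.97), Tmem182 (4.65), Tmem45b (4.51) and the uncharacterised A530016L24Rik (5.10) and 2010003K11Rik (5.09) complete the 15 together with Rbp4, Ces1f, Orm2 and Adrb3. Gys2, Slc2a5 and Tmem182 were well above background on 2 of 5 adipose-low arrays, and Klb, Smpd3, Cldn22, A530016L24Rik and 2010003K11Rik on 1 of 5. Their differences rest on signals near background in the other arrays, so their sizes and their order are uncertain.

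The largest falls among called genes with a symbol were smaller. Otor, which encodes otoraplin, a small secreted protein of the inner ear and cartilage, was -3.17, -0.77, -3.35, -3.05 and -2.75 in the adipose-low arrays and not well above background on any adipose-high array, at least 5.33-fold lower in adipose-high tumours (adjusted p = 0.0189). Bcan, the matrix proteoglycan brevican, was -6.50, -3.79, -5.09, -5.82 and -3.66 in the adipose-high and -2.46, -1.76, -1.68, -2.52 and 0.30 in the adipose-low arrays (-3.41, SE 0.71, adjusted p = 0.0477). Slc6a15, a neutral amino acid transporter, was -3.57, -3.34, -3.55, -2.89 and -2.19 against 0.47, -1.55, 0.04, -0.54 and -0.37 (-2.77, SE 0.40, adjusted p = 0.0204). Cxcl5, a neutrophil-attracting chemokine, differed by -2.52 (SE 0.53, adjusted p = 0.0494), with overlapping values. Synpr, a synaptic vesicle protein, was above background on 0 of 5 adipose-high and 4 of 5 adipose-low arrays, and at least 1.44-fold lower in the former (adjusted p = 0.0314).

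The remaining falls had log2 differences from -2.48 to -1.92. Grhl3, a transcription factor of epithelial barriers, was -4.87, -4.95, -3.94, -3.94 and -4.08 against -1.80, -2.36, -2.92, -2.48 and -2.31 (-2.04, SE 0.27, adjusted p = 0.0136). Wfdc3, a whey acidic protein family member, was -1.0, -2.03, -1.80, -1.11 and -0.08 against 1.23, 1.01, 1.29, 2.55 and 0.27 (-2.48, SE 0.48, adjusted p = 0.0408). The gluconeogenic enzyme Fbp1 (-2.12), the iron reductase Cybrd1 (-2.16), the serpin Serpinb11 (-2.12), the signalling protein Ppp1r1b (-2.08), the fucosyltransferase Fut9 (-1.95), the kinase Nrk (-1.92) and the matrix protein Edil3 (-2.32) fell too, with adjusted p from 0.0230 to 0.0498. Rhox4a, a homeobox gene of a cluster of near-identical copies whose probe may read several of them, was -1.01, -2.31, -0.62, -1.16 and -1.28 against 0.55, 0.61, 0.87, 1.10 and 0.64 (-1.93, SE 0.24, adjusted p = 0.0132). Without B6 replicate 3, 8 of the 15 falls were no longer called (Bcan, Cxcl5, Wfdc3, Synpr, Serpinb11, Fbp1, Fut9 and Nrk). The values of Fut9 and Nrk overlapped between the groups. The falls rested on other single arrays too. In the fit without B6 replicate 4 and in that without B6 replicate 7, limma called 0 genes lower, so all of these falls were lost. It called 4 genes lower without B6 replicate 5, 8 without B6 replicate 8 and 8 without Wsh replicate 5. Bcan, Cxcl5 and Edil3 were well above background on 2 of 5 adipose-high arrays and Serpinb11 on 1 of 5, so the sizes of these falls are uncertain too.

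Adipose tissue holds more than adipocytes, and transcripts of its other cells were examined through marker lists. Among 10 preadipocyte genes 2 rose and 0 fell. Hsd11b1, which regenerates active glucocorticoid, was 2.13, 2.43, 1.65, 0.89 and 0.53 against -1.34, -1.01, -1.16, -1.33 and -2.04 (2.93, SE 0.38, adjusted p = 0.0134), and the progenitor surface protein Cd34 differed by 1.22 (SE 0.24, adjusted p = 0.0436). Of 9 complement genes 3 rose, and the median was 1.49. C3, the central component, was 6.27, 6.19, 5.67, 5.09 and 4.92 against 2.70, 4.38, 3.61, 2.29 and 2.49 (2.51, SE 0.46, adjusted p = 0.0343). The protease C1s1 (1.81, adjusted p = 0.0408) and C2 (2.04, adjusted p = 0.0426) were the others. Without B6 replicate 3 the calls of C3, C1s1, C2 and Cd34 were lost (adjusted p = 0.0678, 0.0788, 0.0837 and 0.0830), as were those of Tek, Hbb-b1, Alas2, Zeb2, Twist2 and Dlat below, while Hsd11b1 and Retnla were still called (adjusted p = 0.0305 and 0.0286). With the muscle mean as a covariate Retnla was not called (adjusted p = 0.0601). The complement and macrophage lists had 0 calls in each limma fit without B6 replicate 4, 5, 7 or 8 or without Wsh replicate 1 or 5.

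All 15 blood vessel endothelial genes were above 0, with a median of 0.67, and the mean of the list ran from -0.53 to 0.28 in the adipose-high and from -1.23 to -0.68 in the adipose-low arrays. Of 5 lymphatic endothelial genes 3 were above 0, with a median of 0.39 and 0 called, and the means of that list overlapped between the groups. Of the blood vessel genes Tek alone, the angiopoietin receptor, was called, at -1.70, -1.29, -1.40, -2.82 and -2.74 against -3.51, -3.66, -3.50, -4.14 and -3.83 (1.79, SE 0.33, adjusted p = 0.0351). All 4 red blood cell genes had non-overlapping higher values, against 3.44% of all genes tested. The mean of that list ran from 1.73 to 3.53 in the adipose-high arrays. It was 3.08 in B6 replicate 6, which lay between the groups by marker mean. Hbb-b1, a beta-globin whose probe may read its near copies, was 1.75, -0.18, 0.62, 0.60 and -0.27 against -1.88, -1.16, -2.04, -2.79 and -1.88 (2.50, SE 0.43, adjusted p = 0.0293), and Alas2, the erythroid enzyme of haem synthesis, differed by 1.75 (SE 0.36, adjusted p = 0.0463).

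Among 16 macrophage genes 15 were above 0 but 1 was called. Retnla, a marker of alternatively activated macrophages that adipose tissue also expresses, was 5.51, 6.19, 5.92, 4.30 and 4.92 against 2.62, 2.23, 2.71, 1.98 and 0.16 (3.40, SE 0.55, adjusted p = 0.0254). Mrc1, the mannose receptor, differed by 1.51 (SE 0.43, adjusted p = 0.0968). Of 7 genes of lipid-associated macrophages 0 were called, the median was -0.06 by group means and 0.01 by the fit, with a sign that changed under other scaling, and Spp1 had -0.87 (SE 0.35, adjusted p = 0.181). Fibroblast matrix genes had a median of 0.72 over 14 genes with 0 called, Dcn at 1.30 (SE 0.35, adjusted p = 0.0869). In the list of mesenchymal transition genes Zeb2 (1.34, SE 0.25, adjusted p = 0.0344) and Twist2 (1.94, SE 0.36, adjusted p = 0.0365), factors also expressed by stromal cells, rose, 2 of 9.

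Lymph node transcripts were higher in 4 of 5 adipose-high arrays, with list means from 0.06 to 2.56, and in 1 of 5 adipose-low arrays. The lymph node list had a median difference of 3.58 over 5 genes, the B and plasma cell list 2.78 over 11 and the T cell list 1.61 over 14, and 0 genes of any of the 3 were called. That adipose-low array was Wsh replicate 7, with a lymph node mean of 0.10, and the other 4 lay between -3.92 and -2.58. The adipose-high array apart was Wsh replicate 4, at -2.68. Cxcl13, the chemokine of B cell follicles, differed by 3.77 (SE 1.09, adjusted p = 0.101), Cd79b by 3.26 (SE 1.12, adjusted p = 0.141) and Cd8a by 2.0 (SE 0.51, adjusted p = 0.0754). The lymph node of the mammary fat pad is a known source of such transcripts, and its part in these samples was not tested. Of 11 muscle genes 0 were called, although the median was 2.73. Myh4, a fast myosin, was -0.38, 4.18, 4.24, -6.11 and 6.30 against 1.99, -7.02, -5.74, -7.68 and -7.21 (adjusted p = 0.193).

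**Figure D5:**
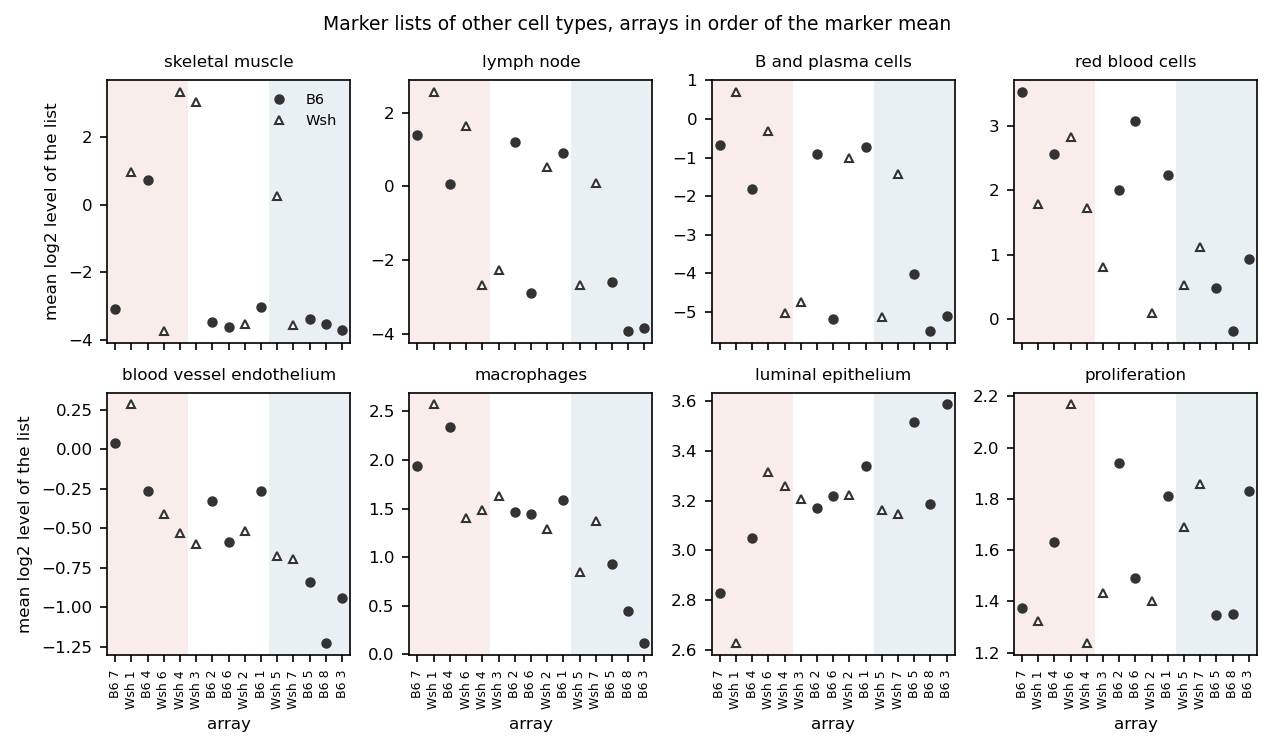
Mean log2 level of 8 marker lists on each array, in order of the marker mean, with B6 as filled circles and Wsh as open triangles, adipose-high arrays shaded red and adipose-low arrays shaded blue; each panel has its own scale. Muscle and lymphoid lists jump between arrays within each group. The adipose-high and adipose-low arrays do not overlap in the endothelial, macrophage and red blood cell lists, but the gaps are narrow in the first 2. The lowest adipose-high and highest adipose-low means are -0.53 and -0.68 for endothelium, 1.41 and 1.38 for macrophages and 1.73 and 1.12 for red blood cells. The luminal epithelial list lies between 2.63 and 3.59.

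The lists of oxidative metabolism held 1 call, to be read beside the 2.07% called over all genes tested. All 12 fatty acid oxidation genes were above 0 with a median of 0.40 and 0 called, Hadhb at 0.81 (SE 0.18, adjusted p = 0.055). In the citric acid cycle list 1 of 10 was called, Dlat, a subunit of pyruvate dehydrogenase, at 0.60 (SE 0.13, adjusted p = 0.0473). Breakdown of branched-chain amino acids, a known activity of fat, had 14 of 16 genes above 0, a median of 0.36 and 0 called, Aldh6a1 at 1.30 (SE 0.31, adjusted p = 0.0612). Cholesterol synthesis had a median of -0.26 over 13 genes with 0 called. Car9, a hypoxia-induced carbonic anhydrase, had -2.41 (SE 0.58, adjusted p = 0.0641).

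Of the epithelial and proliferation lists, 0 genes were called, against 2.07% of all genes tested. At that share, lists of this size would hold few calls. Luminal epithelial genes had 14 of 15 below 0, a median of -0.34 and 0 called, Ehf at -0.71 (SE 0.21, limma adjusted p = 0.101). Most genes lay below 0, 13868 of all 22340 tested. Proliferation genes had a median of -0.07 over 17 genes, beside -0.08 over all genes tested, with Top2a at -0.37 (SE 0.18, adjusted p = 0.251). Scaling each array by its median signal moved the median difference of all genes from -0.09 to -0.21, and the fitted median of the luminal list from -0.30 to -0.42. Esr1, the estrogen receptor, differed by 1.17 (SE 0.28, adjusted p = 0.0638). Of 12 milk and alveolar genes 5 were above and 7 below 0, with a median of -0.07 and 0 called. Glycam1, a milk gene that lymph node vessels also express, was 3.83, 4.96, 2.45, 4.65 and -2.93 against -2.65, 3.85, -1.01, -3.01 and -2.74 (limma adjusted p = 0.277).

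Whether the pattern differed between B6 and Wsh was tested as a difference in slope on the marker mean over all 15 arrays. With limma, 0 of 22340 genes (0%) passed, and 1142 had an unadjusted p under 0.05. Cpa3, the mast cell carboxypeptidase, is given because the backgrounds differ in mast cells. It was 0.43 and 0.85 in the 2 adipose-high B6 tumours, -4.47, -5.22 and -7.20 in the 3 adipose-low B6 tumours, and at or below -7.01 in all 5 Wsh tumours of these groups, 6.27 apart within B6 and -0.20 within Wsh. It was not called in the comparison (adjusted p = 0.166).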

How the data were processed

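The files are scanner output of 15 one-colour Agilent arrays hybridised with Cy3-labelled cRNA. The deposited processed signal is an intensity on a linear scale, background-corrected by Feature Extraction 10.7.3.1, per the submitters' processing notes. The authors' deposited value table holds log2 values, for which those notes name limma; its exact processing is not given in the sources used here, and it served as an alternative. Without control spots, and with repeated spots of a probe averaged, log2 of the signal minus the 75th percentile of the array was used. Probes had to be well above background on 7 or more of the 15 arrays, and each gene was read from its kept probe of highest mean. Groups were compared with limma 3.58.1 (R 4.3.3), with background as a covariate and Benjamini-Hochberg adjustment over 22340 genes at 0.05. Single values were compared by exact permutation over all splits of the arrays. Spots well above background made up 55.7% to 73.4% of an array, and precision is limited by how many arrays there are. Simulated data had 200 of 22320 genes changed. Of these changes, 56% of those of 1 and 85% of those of 2 log2 units were recovered, and 0.0316% of unchanged genes were called. The simulated noise was normal and drawn for each gene on its own, with groups set beforehand. It held no array far from the others and no tissue that moves many genes together. These rates therefore need not hold for the real arrays. Genes described are the 4 markers, the 15 largest rises and the 15 largest falls among called genes with a symbol, members of the adipocyte lists, and up to 4 members of each other list with the largest moderated statistic. The members and the lists were chosen with earlier results of these data known. Genes of the adipocyte lists are given without p-values because the ranking used genes of the same cells.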

Additional observations from a re-analysis of the deposited data

Results flagged for a closer look

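In 22 of 224 sets of values, 1 array stood apart from the others by Dixon's test at the 95% level, where chance alone gives about 1 in 20. These 22 were all sets of 5 values. Of these 22 sets, 14 had B6 replicate 3 as the array apart, in the adipose-low group. The marker mean and the 4 markers, 5 of these 14 sets, are the values on which this array was ranked last, and others are genes of the same cells, so the tally is a description and not independent support. Its marker mean was -3.05, next to 0.95. Among the 4 markers it read -3.55 for Adipoq, -7.06 for Plin1, 0.72 for Fabp4 and -2.31 for Cidec. Among other adipocyte genes it read -4.76 for Adrb3, -7.06 for Ces1f, -5.41 for Pck1, -3.51 for Retn and -7.20 for Trarg1. It also stood apart for Klb at -7.10, Slc36a2 at -5.74, Dlat at -0.50 and Retnla at 0.165.

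The other 8 sets were spread over 5 arrays. In the adipose-high group, Lep was -2.41 in B6 replicate 7, next to -2.61, and Cybrd1 was -5.14 there, next to -4.23. Ucp1 was 0.49 in Wsh replicate 4, next to -3.57. In the adipose-low group, Acly was 3.78 and Myh4 was 1.99 in Wsh replicate 5. Otor was -0.77 and Cd8a was -2.49 in Wsh replicate 7. The 75th percentile of the signal was 6406 in B6 replicate 8, next to 4239.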

How the results depend on the processing

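The count of 462 genes fell to 83 with no filter on dim probes (37004 genes tested), to 178 with slide as a block, to 170 with the muscle mean as a covariate, and to 0 with slide 2 alone, with Wsh alone and, in an alternative chosen after seeing the data, without the 4 arrays with muscle transcripts. At an unadjusted p under 0.05 limma gave 2943, 1093 and 2679 genes in these last 3. It rose to 753 with no background term, 944 in B6 alone, 1748 with the middle arrays as a group of their own, 1671 with groups by Lipe, Pck1, Cfd and Retn, 1068 with array weights, 2924 with the marker mean over 15 arrays and 3693 over the 14 arrays other than B6 replicate 3, the last also chosen after seeing the data. Leaving out 1 array gave 4 to 1759. Counts under normexp (564), quantile normalization (454), scaling by the median (633), the deposited log2 table (541) and the mean of probes (439) were within 1.5 times. Slide 1 alone was not run because it holds 1 adipose-low array. With the replicate block, 332 genes were called on the marker mean over 15 arrays and 0 in the 10 arrays (1140 at an unadjusted p under 0.05, with 1 residual degree of freedom). Arrays of the same number correlated from -0.24 to 0.21 over 7 pairs, and 1 pair was best with its own number, so the numbers were not taken as pairs. Cd79b was -1.17 and Glycam1 -3.53 in the 10 arrays with that block, and Cpa3 was -0.20 in Wsh alone. Between backgrounds the marker mean differed by -0.25 on slide 2, and by 0.12 to 1.33 when 1 array was left out. The difference in the share of spots well above background ran from -2.35 to 1.90 percentage points, and that in the 75th percentile from -158 to 557. The test of slopes between backgrounds called 0 to 1 gene with 1 array left out. The causes of these shifts were not tested.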
